A study of Homo sapiens with 4 samples.

Results

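The POU2 and AP-2 transcription factor genes were examined in MDA-MB-231, a triple-negative human breast cancer cell line, and in a derivative of it that metastasises to the lung, LM2-4175 (LM2 in the deposited table). The 10 genes, of 57815 in the deposited table, were taken by name: POU2F1, POU2F2, POU2F3, POU2AF1, TFAP2A, TFAP2B, TFAP2C, TFAP2D, TFAP2E and TFAP4. They were chosen by their families after FPKM values of POU2F2 and TFAP2C in this same comparison were known, so the values below describe these cell lines and no test was made on them. Both cell lines were grown untreated in DMEM with serum, and RNA from 2 libraries of each was sequenced. The table holds 1 FPKM (sequenced fragments scaled by transcript length and by the mapped total) per gene and cell line with a lower and an upper bound, in which the authors combined the libraries. No difference between the cell lines therefore has a replicate check, and each group is a single cell line.

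POU2 factors bind the octamer, a short DNA element found in immunoglobulin, histone H2B and small nuclear RNA genes, through a bipartite POU domain. POU2F1 (OCT1) is made in most cells, POU2F2 (OCT2) is best known from B cells and neurons, POU2F3 (OCT11) marks tuft cells and skin, and POU2AF1 (OBF1) is a coactivator of B cells that holds POU2 proteins on the octamer. AP-2 factors (TFAP2A to TFAP2E) bind GC-rich palindromes as dimers and act in neural crest, skin and mammary epithelium, where TFAP2A and TFAP2C are the members known in breast cancer. TFAP4 carries a similar name but is a basic helix-loop-helix factor activated by MYC.

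A promoter window of 250 bases before the start was read from the RefSeq promoter sequences (GRCh38.p14), which had an entry for 6 of the 10 genes. POU2F3, POU2AF1, TFAP2C and TFAP4 had no entry, so no window of these 4 was searched. The windows were searched on both strands for the octamer ATGCAAAT and for the AP-2 palindrome GCCNNNGGC, letters that do not overlap as motifs and that 1.63% and 19.8% of 35116 promoter windows hold. The only match was an octamer in the window of the downstream start of POU2F1. It began at position -179 from that start and read ATTTGCAT, the reverse strand of the octamer. No AP-2 match was found in the windows of these genes, which says only that these letters are not in these windows. The windows shown are that of POU2F2, the gene with the largest difference, in which capitals mark bases that also lie in the annotated first exon of its antisense gene POU2F2-AS1, and that of the downstream start of POU2F1, in which capitals mark the octamer. By exact match to GRCh37, the assembly of hg19 that the authors used, the POU2F2 window is chr19:42636599-42636848 (minus strand) and the POU2F1 window is chr1:167298057-167298306 (plus strand).
POU2F2: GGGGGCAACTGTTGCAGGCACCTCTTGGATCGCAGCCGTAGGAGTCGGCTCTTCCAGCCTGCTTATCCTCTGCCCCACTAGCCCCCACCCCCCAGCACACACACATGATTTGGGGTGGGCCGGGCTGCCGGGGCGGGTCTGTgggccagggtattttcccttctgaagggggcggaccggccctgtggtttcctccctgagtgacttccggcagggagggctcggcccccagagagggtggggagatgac
POU2F1: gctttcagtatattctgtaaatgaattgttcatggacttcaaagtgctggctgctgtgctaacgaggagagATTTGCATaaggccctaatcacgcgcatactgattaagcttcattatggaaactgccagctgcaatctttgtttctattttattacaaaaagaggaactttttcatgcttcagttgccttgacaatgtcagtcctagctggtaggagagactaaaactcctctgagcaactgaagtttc
The capitals in the POU2F2 window cover 142 of its bases. POU2F2-AS1 starts 109 bases from the RefSeq start of POU2F2 and is transcribed in the opposite direction. This RefSeq start (42636598) is internal to the GENCODE span of POU2F2, whose first base on the minus strand is 42700737. No window was read at that upstream end.

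POU2F2 and TFAP2C were higher in LM2-4175, and the other 4 members above the filter had bounds that overlapped between the cell lines. A gene was tested where its status was OK and its mean was at least 0.5 FPKM, and it was called where log2(FPKM + 1) differed by at least 1.5-fold and the authors' bounds did not overlap. Of the 10 members, 6 passed the filter, each with more than 0.5 FPKM in both cell lines, and 4 did not (POU2F3, POU2AF1, TFAP2B and TFAP2D). Among the 6, POU2F2 and TFAP2C were called higher and 0 were called lower. Across all 13911 genes tested, 4.67% were called higher, 4.61% lower and 9.27% either way, and since this comparison chose the members nothing is read from their count. The median log2 fold change of the 6 members was 0.115, against -0.04 for all genes tested. Over all genes tested the upper bound exceeded the FPKM by 38.6% (median) for MDA-MB-231 and 38.1% for LM2-4175, and by 24% to 55.8% for these 6 members. The deposited table gives no read counts per gene, so in it the bounds alone show the precision of each value. The study's supplement lists the aligned reads of each library. The authors' methods do not say if variation among libraries enters the bounds. As bulk RNA was measured, a few cells with a high level and many with a low level cannot be told apart.

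**Figure D1:**
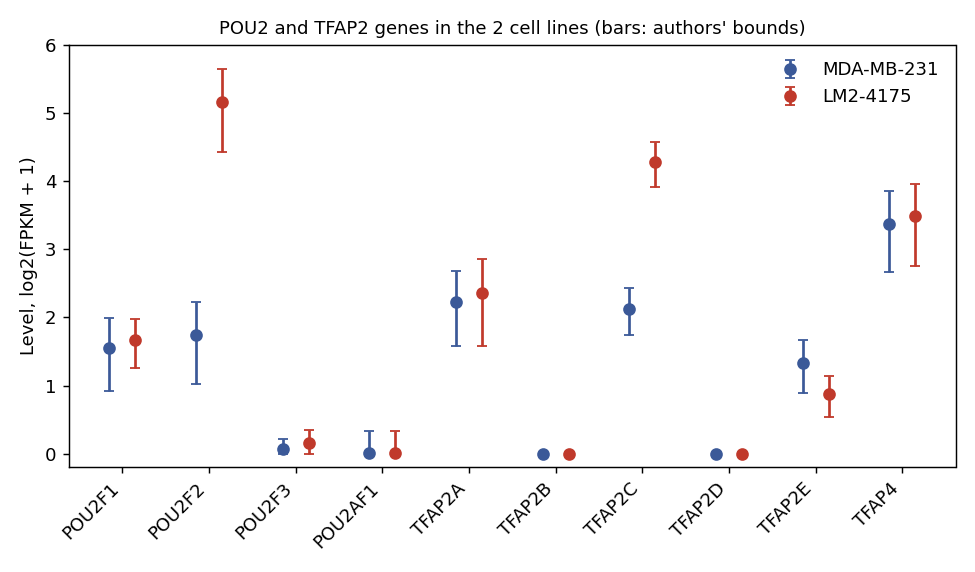
Level of each of the 10 genes, as log2(FPKM + 1), in MDA-MB-231 (blue) and LM2-4175 (red), with bars for the authors' lower and upper bounds. Only for POU2F2 and TFAP2C do the bars of the cell lines stand apart, and TFAP2B and TFAP2D are listed at 0 in both.

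POU2F2 (ENSG00000028277, on the minus strand of chromosome 19, GRCh37, 42590262 to 42700737) was low in MDA-MB-231 cells, at 2.345 FPKM (bounds 1.036 to 3.655). LM2-4175 cells had 34.69 FPKM (bounds 20.51 to 48.88). The lower bound in LM2-4175 lay far above the upper bound in MDA-MB-231, and the FPKM ratio was 14.8. The log2 fold change of FPKM + 1 was 3.42, with a standard error of 0.40 taken from the bounds. Among the 13911 genes tested, 39 genes (0.28%), POU2F2 included, had a fold change as high. By level it went from rank 11050 to rank 3104, that is from the highest 79.4% to the highest 22.3% of genes tested.

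POU2F1, the widely expressed paralogue (ENSG00000143190, chromosome 1, 167190113 to 167396582, plus strand), differed little, with 1.936 FPKM (0.8972 to 2.974) for MDA-MB-231 and 2.167 FPKM (1.399 to 2.934) for LM2-4175. The LM2-4175 bounds lie inside those of MDA-MB-231. The log2 fold change was 0.11, with an interval of 2 standard errors from -0.51 to 0.73. Of its exon bases, 4.89% overlap exons of CD247 on the opposite strand, a T cell receptor chain gene with 0.01455 and 0.02001 FPKM.

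POU2F3 (ENSG00000137709, plus strand of chromosome 11, 120107349 to 120190654) was at 0.04837 FPKM for MDA-MB-231 and 0.119 FPKM for LM2-4175, with a lower bound of 0 in both. POU2AF1, the coactivator (ENSG00000110777, chromosome 11, 111222980 to 111326355, minus strand), had 0.00699 and 0.009025 FPKM, with upper bounds of 0.2572 and 0.26. The B cell coactivator was thus near 0 in both cell lines. Exons of ENSG00000255093, a pseudogene on the opposite strand, overlap 3.37% of the POU2AF1 exon bases. This pseudogene was listed at 0 FPKM in both cell lines. The POU2AF1-like genes C11orf53 and COLCA2, whose products are coactivators of POU2F3, had 0.0003083 and 0.001892 FPKM in LM2-4175 cells and were listed at 0 for MDA-MB-231.

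TFAP2C (ENSG00000087510, chromosome 20, 55204362 to 55214339, plus strand), which encodes AP-2 gamma, stood at 3.367 FPKM (bounds 2.333 to 4.4) in MDA-MB-231 cells. LM2-4175 cells had 18.41 FPKM (bounds 13.99 to 22.83). The bounds are well apart and are the narrowest of the 6 members relative to the FPKM, and the ratio was 5.47. The log2 fold change was 2.15, with a standard error of 0.24 from the bounds. A fold change as high was found for 123 genes (0.884%), TFAP2C included, and GENCODE lists no gene that overlaps it. By level it moved from rank 10327 to rank 5223 of the genes tested.

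TFAP2A, which encodes AP-2 alpha (ENSG00000137203, chromosome 6, 10393419 to 10419892, minus strand), was at 3.695 FPKM (1.993 to 5.398) for MDA-MB-231 and 4.104 FPKM (1.984 to 6.223) for LM2-4175. Its log2 fold change was 0.12, with an interval of -0.68 to 0.92, so differences inside that interval are not resolved. Exons of TFAP2A-AS2 and TFAP2A-AS1 on the opposite strand overlap 11.4% and 5.33% of its exon bases, and TFAP2A-AS1 had 0.9571 and 0.9497 FPKM. TFAP2E, which encodes AP-2 epsilon (ENSG00000116819, chromosome 1, 36038915 to 36060929, plus strand), was the member with a lower value in LM2-4175. MDA-MB-231 cells had 1.511 FPKM (0.8595 to 2.162) and LM2-4175 cells 0.8276 FPKM (0.4458 to 1.209). The log2 fold change was -0.46 with an interval of -0.94 to 0.02, the FPKM ratio was 0.548, and the bounds overlap, so it was not called. With a pseudocount of 0.1 or none the log2 fold change was -0.80 or -0.87, past 1.5-fold, still with overlapping bounds. Exons of the antisense gene TFAP2E-AS1 cover 2.55% of its exon bases, with 0.2804 and 0.08497 FPKM. TFAP2B (ENSG00000008196) and TFAP2D (ENSG00000008197), which lie beside each other on chromosome 6 from 50681239 to 50815332, were listed at 0 with bounds of 0 in both cell lines, and an exact 0 in such a table can also be a failed estimate.

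TFAP4 (ENSG00000090447, chromosome 16, 4307187 to 4323076, minus strand), the factor outside the AP-2 family, was at 9.356 FPKM (5.319 to 13.39) for MDA-MB-231 and 10.17 FPKM (5.759 to 14.58) for LM2-4175. Its log2 fold change was 0.11, with an interval of -0.69 to 0.91. MYC, which activates TFAP4, had 63.52 FPKM (48.74 to 78.3) and 72.21 FPKM (55.34 to 89.07), also with overlapping bounds.

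**Figure D2:**
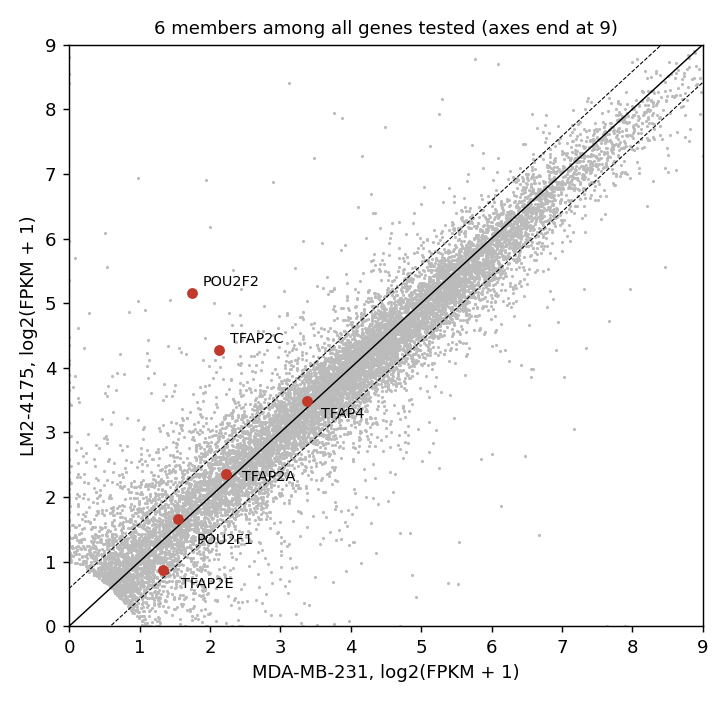
Each grey point is 1 of the genes tested, with log2(FPKM + 1) in MDA-MB-231 on the x axis and in LM2-4175 on the y axis. The solid line marks equal levels and the dashed lines a 1.5-fold difference; of the 6 members (red), POU2F2 and TFAP2C lie far above the band and the other 4 lie within it. Both axes end at 9, so the highest genes are not shown.

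FPKM is scaled to length, so the members can be set in order of level within a cell line. In MDA-MB-231 the order was TFAP4, TFAP2A, TFAP2C, POU2F2, POU2F1 and TFAP2E, and the bounds of every pair of neighbours in this order overlap. In LM2-4175 the order was POU2F2, TFAP2C, TFAP4, TFAP2A, POU2F1 and TFAP2E. There the bounds of neighbours also overlap, except for POU2F1 and TFAP2E. POU2F2 and TFAP2C overlap each other, while the lower bound of POU2F2 (20.51 FPKM) exceeds the upper bound of TFAP4 (14.58 FPKM).

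The make-up of each family differed between the cell lines. POU2F2 held 54.2% of the summed FPKM of the POU2F genes in MDA-MB-231 and 93.8% in LM2-4175, while POU2F1 held 44.7% and 5.86%. The sums were 4.329 and 36.98 FPKM, a ratio of 8.54, while POU2F1 and POU2F3 together had 1.984 and 2.286 FPKM. In the TFAP2 genes, TFAP2A was the largest share in MDA-MB-231 with 43.1%, next to 39.3% for TFAP2C and 17.6% for TFAP2E. In LM2-4175 TFAP2C held 78.9%, TFAP2A 17.6% and TFAP2E 3.55%. The TFAP2 sums were 8.573 and 23.34 FPKM, and without TFAP2C they were 5.206 and 4.931 FPKM.

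**Figure D3:**
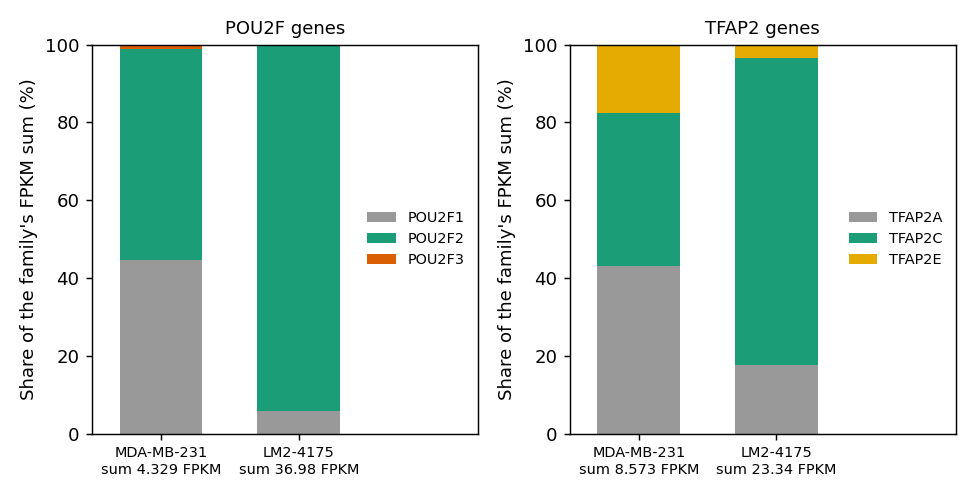
Share of each gene in the summed FPKM of the POU2F genes (left) and the TFAP2 genes (right), in percent, with the sums in FPKM under the bars. POU2F2 goes from 54.2% to 93.8% and TFAP2C from 39.3% to 78.9% from the left bar to the right; the shares carry no error of their own.

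The antisense genes at POU2F2 were examined because counting without strand cannot tell reads of a gene from those of its antisense partner. The authors' methods name a TruSeq kit and TopHat with default parameters, and do not mention strand. POU2F2-AS1 (ENSG00000254887, named CTC-378H22.1 in the table, 42636707 to 42641538, plus strand) gave 0.2749 FPKM (0 to 0.9251) for MDA-MB-231 and 4.994 FPKM (0 to 14.03) for LM2-4175. POU2F2-AS2 (ENSG00000259436, CTC-378H22.2, 42656721 to 42661675, plus strand) gave 0.08171 FPKM (0 to 0.2803) and 6.184 FPKM (0.4996 to 11.87). POU2F2-AS2 was called higher (log2 fold change 2.73), and POU2F2-AS1, at 2.23, was not called because its bounds overlap. Both lie inside POU2F2, and 0% of the POU2F2 exon bases overlap theirs. Their part in the POU2F2 value was not tested, nor was the part of reads from unspliced POU2F2 RNA in their values.

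Genes beside POU2F2 and TFAP2C were read in the same way. Within 1 Mb of the POU2F2 locus start, 30 other genes were tested, of which 24 were lower and 6 higher by value in LM2-4175 cells, beside 7585 lower of all 13911 genes tested. The median log2 fold change was -0.31, and 1 was called higher and 1 lower, beside 4.67% and 4.61% of all genes tested. Without the antisense genes, a set chosen after the data were seen, 28 genes were left with a highest log2 fold change of 0.37, 0 called higher and 1 called lower (B3GNT8, a glycosyltransferase gene, from 2.973 to 0.1442 FPKM). Within 1 Mb of TFAP2C, 6 other genes were tested, 2 higher and 4 lower, with a range of -0.38 to 0.44, and 0 were called in either direction. AURKA, a mitotic kinase gene in that window, had 169.2 and 129.6 FPKM. AURKA and B3GNT8 were named after their values were seen.

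**Figure D4:**
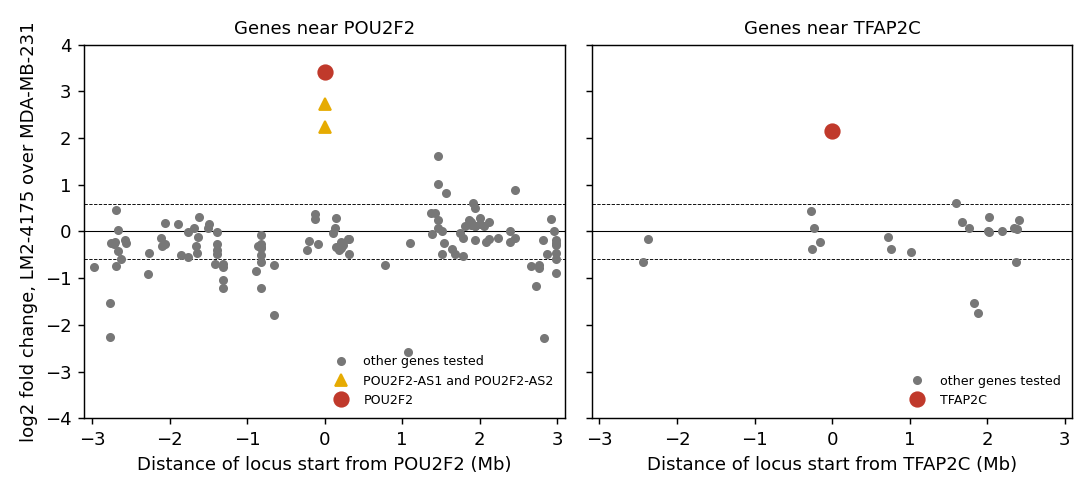
Log2 fold change of each gene tested within 3 Mb, by the distance of its locus start from that of POU2F2 (left) or TFAP2C (right) in Mb, with dashed lines at a 1.5-fold difference. POU2F2 (3.42, red) and its antisense genes (2.23 and 2.73, triangles) stand above the genes around them, as does TFAP2C (2.15).

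The genes nearest to the members in level in both cell lines were found by the distance in log2(FPKM + 1) over these 2 values, which is a coarse measure. For POU2F2 they were MSI2, an RNA-binding protein gene (1.704 to 32.21 FPKM, distance 0.32), COL1A1, a fibrillar collagen gene (3.163 to 30.98 FPKM, distance 0.35) and FHL1, a LIM-domain gene (3.822 to 27.73 FPKM, distance 0.61). For TFAP2C they were CHRDL1, a BMP antagonist gene (3.481 to 18.34 FPKM, distance 0.04), PDLIM3, also a LIM-domain gene (3.537 to 16.98 FPKM, distance 0.12) and AMPD3, an AMP deaminase gene (3.208 to 16.38 FPKM, distance 0.17).

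Among the partners and relatives of the POU2 factors that were tested, 0 were called, beside 9.27% of all genes tested. With so few genes nothing is read from this count. Of 13 other POU genes, 1 passed the filter, POU6F1, at 2.357 FPKM (0.4795 to 4.235) for MDA-MB-231 and 3.185 FPKM (0.6433 to 5.726) for LM2-4175. POU3F2, a neural factor, had 0.01417 FPKM (0 to 0.03473) and 0.409 FPKM (0.2413 to 0.5768), with bounds apart at a mean under the filter, and POU5F1 (OCT4) had 0.0649 and 0.08145 FPKM. Of the partners that act with octamer factors, 8 were tested, 3 had a higher and 5 a lower value, 0 were called and the median log2 fold change was -0.05. SNAPC1, a subunit of the complex that starts small nuclear RNA transcription, had 43.23 FPKM (15.81 to 70.66) and 100.3 FPKM (53.3 to 147.3), past 1.5-fold with overlapping bounds. SNAPC2 of this complex was past 1.5-fold the other way, at 19.48 FPKM (12.55 to 26.41) and 11.86 FPKM (6.387 to 17.33), also with overlapping bounds. It was named after its values were seen. SNAPC5 of the same complex had 20.71 and 15.99 FPKM, and HCFC1, a cofactor of POU2F1, had 17.81 and 17.25 FPKM.

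POU2F2 stands among B cell genes in textbooks, so 10 B cell genes were read as a check of what the samples hold. Of these, 9 were under 0.3 FPKM in both cell lines and 1 passed the filter. This was CD22, an inhibitory receptor gene, at 8.043 FPKM (4.281 to 11.81) for MDA-MB-231 and 18.67 FPKM (11.61 to 25.72) for LM2-4175. Its log2 fold change was 1.12, and the bounds just overlap. The next highest were CD79A with 0.2577 and 0.08278 FPKM and SPIB with 0.1511 and 0.1327 FPKM. The 10 genes summed to 8.65 FPKM in MDA-MB-231 and 19.15 FPKM in LM2-4175, nearly all of it from CD22.

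Among 9 genes of AP-2 partners, 7 were tested, 3 with a higher and 4 with a lower value, and 1 was called (14.3%, beside 9.27% of all genes). This was CITED2, a coactivator that links AP-2 to EP300 and CREBBP, which was at 57.99 FPKM (44.7 to 71.28) for MDA-MB-231 and 29.71 FPKM (22.74 to 36.68) for LM2-4175 (log2 fold change -0.94). The list had a median of -0.04. EP300 had 8.729 and 8.482 FPKM, and KCTD1, an AP-2 repressor gene, had 8.966 and 6.106 FPKM with overlapping bounds.

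Of 16 genes known as AP-2 targets, 11 were tested, 4 with a higher and 7 with a lower value, and their median log2 fold change was -0.10. Of the 11, 2 were called (18.2%, beside 9.27% of all genes). CDKN1A, the cell cycle inhibitor p21 that TFAP4 represses and AP-2 alpha activates, was called higher, from 46.76 FPKM (35.72 to 57.81) to 76.97 FPKM (59.46 to 94.47). KRT8, a luminal keratin gene, was called lower, from 625.7 FPKM (419.8 to 831.5) to 180.2 FPKM (116.8 to 243.6). ERBB2, whose promoter is a known AP-2 target, had 34.95 FPKM (20.88 to 49.02) and 22.76 FPKM (12.81 to 32.72), and MUC1, a mucin gene, had 13.27 FPKM (3.227 to 23.32) and 1.813 FPKM (0 to 4.39), both with overlapping bounds. ESR1, the estrogen receptor gene that TFAP2C drives in luminal cells, had 0.03314 and 0.01861 FPKM. ERBB2, MUC1, ESR1, EP300, KCTD1, MYC, C11orf53 and COLCA2 were named after their values were seen. Of the 6 partners and targets of TFAP4, CDKN1A was the 1 gene called (16.7%), and the median was 0.15.

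The study's supplementary network pairs TFAP2C with 94 genes and POU2F2 with 8, by motifs in active promoters and enhancers. The study built this network from these same cell lines with their expression, so their counts are not independent evidence. Of the TFAP2C genes, all 94 were tested, 54 had a higher and 40 a lower value, 77 were past 1.5-fold, and 27 were called higher and 16 lower (45.7%, beside 9.27% of all genes). The median log2 fold change was 0.65. The largest called differences were in CSF3, a granulocyte growth factor gene (1.15 to 831.1 FPKM), CADM1, an adhesion gene (0.7981 to 28.08 FPKM), GALNT9, a glycosyltransferase gene (0.09963 to 10.08 FPKM), MATN2, a matrix protein gene (56.47 to 4.984 FPKM), DNER, a Notch ligand gene (0.5991 to 14.16 FPKM), and PLEKHA7, an adherens junction gene (19.47 to 1.196 FPKM).

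Of the 8 genes paired with POU2F2, 6 had a higher and 2 a lower value, and 3 were called higher (37.5%, beside 4.67% of all genes called higher). ITGB2, the leukocyte integrin beta chain gene, went from 3.925 FPKM (2.247 to 5.604) to 13.06 FPKM (8.14 to 17.98), and the factors FOXA2 and FOXQ1 from 5.034 to 14.49 FPKM and from 5.344 to 9.54 FPKM. The median of the 8 genes was 0.66.

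**Figure D5:**
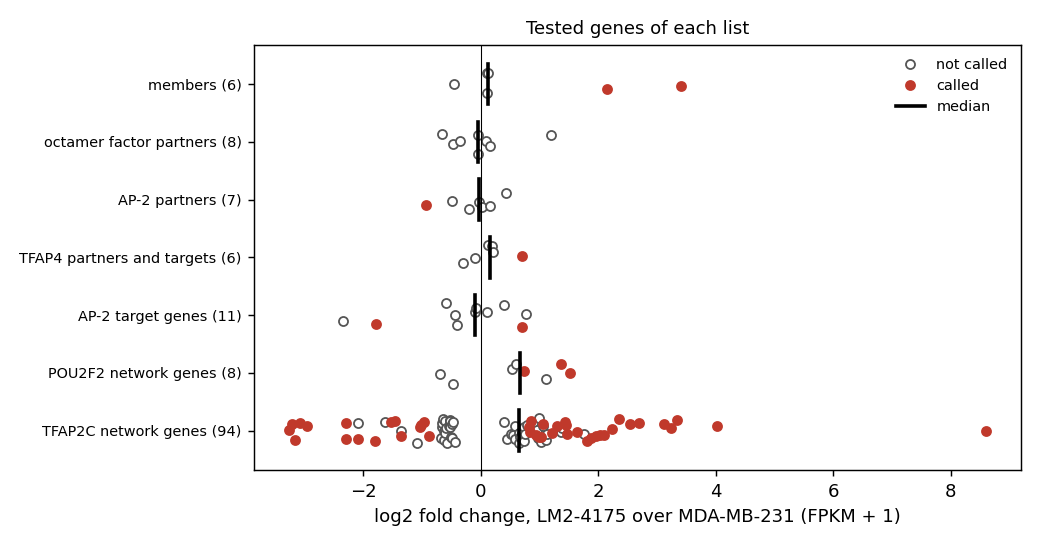
Log2 fold change (LM2-4175 over MDA-MB-231, on FPKM + 1) of the genes tested in each list, with the number tested in brackets, called genes filled, other genes open and a black bar at each list's median. The genes that the study paired with TFAP2C spread from -3.26 to 8.60, while in the partner lists SNAPC1 (1.20), SNAPC2 (-0.67) and CITED2 (-0.94) are past 1.5-fold.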

How the data were processed

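RNA was sequenced in 2 libraries per cell line (4 in all). The authors prepared the libraries with a TruSeq kit, mapped the reads to hg19 with TopHat 2 and computed FPKM for genes of GENCODE 19 with Cufflinks and Cuffdiff; the deposited FPKM table has 1 value, 2 bounds and a status per gene and cell line. How libraries were scaled to each other is not given in the sources used here. Levels were compared as log2(FPKM + 1), with a pseudocount of 1, on genes with a mean of at least 0.5 FPKM whose status was OK for each cell line. The call (1.5-fold and bounds that do not overlap) carries no p-value. Standard errors were computed by dividing the upper bound's distance from the FPKM by 2. Limma on single libraries could not be run on 1 value per cell line.

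Members and lists were chosen with earlier results of these data known. Named are all members, the called genes of each list (at most 6, by size), the 3 genes nearest in level to POU2F2 and TFAP2C, and genes whose exons overlap a member. Where no gene of a list was called, its 3 highest by FPKM were named. The antisense genes at POU2F2 were named as well. The text says where others were named after their values were seen. A gene was taken out of the lists and is not reported here, and 1 of 11 octamer partners was not analysed here. Positions come from GENCODE 44 on GRCh37 (55535 IDs matched, 2280 did not). Alternatives were another pseudocount or none, other filters, folds, call rules and scalings. The comparison of genes by promoter motif was void, because 75.2% of genes tested had a promoter entry, under the 80% required. The call was tested on simulated data whose noise was drawn from the widths of the bounds, so that test does not cover variation between libraries. Python 3.11.15, NumPy 2.4.6, pandas 2.3.3, SciPy 1.17.1 and Matplotlib 3.10.9 were used.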

Additional observations from a re-analysis of the deposited data

How the results depend on the processing

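Of 9 alternatives, 4 change the values (a pseudocount of 0.1 or none, and FPKM scaled to the same sum or to the same median), and the 24 values they give for the 6 tested members kept their direction. This is a weak check, as a pseudocount cannot turn a direction. Both scalings raise LM2-4175 values (factors 1.058 and 1.021), so members higher there could not turn either. The other 5 alternatives (no filter, a mean of at least 1 FPKM, a fold of 2, the fold alone and the bounds alone) change only the filter or the call and leave each value as it is. Under all 9, POU2F2 and TFAP2C were called higher and no other tested member was called. POU2F2 ranged from 3.42 to 3.89, TFAP2C from 2.15 to 2.45 and TFAP2E from -0.87 to -0.42. The counts over all genes moved more: the fold alone called 1434 genes higher and 1640 lower, and a fold of 2 called 403 lower, in place of 649 and 641, since these rules ask for less or more. Scaling to the same sum multiplied the LM2-4175 values by 1.058 (0.08 on the log2 scale) and called 737 higher and 541 lower (57.7% higher, beside 50.3%). Within 3 Mb the share of genes with a higher value was 31.1% near POU2F2 and 45.5% near TFAP2C, beside 20% and 33.3% within 1 Mb.

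No paired analysis was possible because the table holds 1 combined value per cell line, and for the same reason leaving out a library was not possible. The alternative promoter window was not run, as that comparison was void. The bounds limit what low members show: POU2F3 and POU2AF1 have lower bounds of 0, and the intervals of POU2F1, TFAP2A and TFAP4 reach 0.73, 0.92 and 0.91 on the log2 scale.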

Other observations

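Other cell type markers gave the following values, to be read beside the 4.67% of all genes called higher and 4.61% called lower. Of 5 epithelial genes, 4 (80%) were called lower in LM2-4175: KRT19 fell from 250.3 to 36.31 FPKM, KRT18 from 448.5 to 181.1 FPKM, EPCAM from 12.26 to 4.928 FPKM, and KRT8 as given above, while CDH1 had 0.8505 and 0.3655 FPKM with overlapping bounds. Of 4 mesenchymal genes tested, 3 had a higher and 1 a lower value, and 2 (50%) were called: SPARC rose from 13.64 to 231.7 FPKM and FN1 fell from 313.7 to 117.3 FPKM. VIM had 1355 and 1768 FPKM and ZEB1 26.06 and 40.48 FPKM (past 1.5-fold), both with overlapping bounds. CDH2 was under the filter, at 0.2212 and 0.08393 FPKM. Of 12 tuft cell genes, the cells in which POU2F3 is known, 3 were tested and 2 (66.7%) called: ALOX5AP, whose product serves leukotriene synthesis, rose from 0.3764 FPKM (0.08148 to 0.6713) to 8.188 FPKM (5.532 to 10.84), PTGS1 fell from 1.888 to 0.724 FPKM and PLCG2 had 2.84 and 2.482 FPKM. TRPM5 and IL25 were listed at 0 in both cell lines. CDH1, VIM, ZEB1, CDH2, PLCG2, TRPM5 and IL25 were named after their values were seen.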
